A study of Mus musculus with 24 samples.

Results

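The 9 genes described here encode the peptide-presenting molecules of the major histocompatibility complex (MHC) and the proteins that load them. They are H2-K1, H2-D1, B2m, Tap1 and Tapbp of the class I pathway, and Cd74, H2-Aa, H2-Ab1 and H2-Eb1 of the class II pathway. They were taken by symbol from the raw gene counts, in which all 9 were found among 49568 gene symbols, and they were followed in 22 of the 24 libraries of the study and beside Ttr. Ttr encodes transthyretin, a thyroid hormone and retinol carrier that is made in the brain mainly by the epithelium of the choroid plexus.

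RNA was sequenced from the whole hippocampus of male mice on a C57-Bl/6J background. Their age is 12 weeks in the labels, whereas the methods of the study state a somewhat older age. Wild-type (WT) mice and mice homozygous for a point mutation in MSK1 that abolishes the activity of its N-terminal kinase (MSK1 kinase dead, KD) were kept in standard housing (SH) or reared from before birth in an enriched environment (EE) with a running wheel and toys. The 22 libraries comprised 6 WT SH, 5 WT EE, 6 KD SH and 5 KD EE libraries, and the question was whether the level of these genes followed housing or genotype. Libraries 33B (WT EE) and 34B (KD EE) had failed the quality control of the study and were left out. All libraries with a letter in their code came from enriched mice, and the labels do not say whether each library came from a different animal, so that p values here measure the spread between libraries.

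The 22 libraries held between 8911999 and 56752074 counts on genes, and 3 counts, taken as the floor of detection, stood for a CPM of 0.0529 to 0.337. CPM are the counts of a gene relative to the library total, taken as it is for this floor and scaled by the TMM method for all levels given here. Markers of hippocampal neurons summed to between 8126 and 10109 CPM, whereas the 10 markers of choroid plexus epithelium summed to between 39 and 5689 CPM. Rps6ka5, the gene of MSK1, was between 19.3 and 29.0 CPM in the 22 libraries, and as the KD allele is a point mutation, its level does not check the genotype.

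Class I molecules are found on almost all nucleated cells. They consist of a heavy chain (H2-K1 or H2-D1) and β2-microglobulin (B2m), and they present peptides that the transporter Tap1, with its partner Tap2, moves into the endoplasmic reticulum, where tapasin (Tapbp) helps to load them. Class II molecules are made mainly by professional antigen-presenting cells, which in the brain are found chiefly at its borders, in the choroid plexus and the meninges. The chains H2-Aa and H2-Ab1 form the molecule I-A, H2-Eb1 is the β chain of I-E, and Cd74 is the invariant chain that guides class II molecules to the compartment of peptide loading. Interferon induces both pathways.

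In the GENCODE annotation of GRCm38, H2-K1 is at chr17:33996017-34000347, H2-D1 at chr17:35262730-35267499, Tapbp at chr17:33915899-33929292 and Tap1 at chr17:34187553-34197225. H2-Ab1 is at chr17:34257689-34269419, H2-Aa at chr17:34282744-34287823 and H2-Eb1 at chr17:34305867-34316674, so that 7 of the 9 genes lie in the H2 complex. B2m is at chr2:122147686-122153083.

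Promoters of class I and class II genes are known to share a module in which an X box with a cyclic AMP response element-like end is followed by a Y box. RefSeq promoters of 300 bases (GRCm38.p6, 250 before to 50 after the start) were found for 7 of the 9 genes, and none for Cd74 and H2-Ab1. A search on both strands for the letters TGANG followed by ATTGG, with 20 to 22 bases between them, found the pair in 5 of these 7, H2-K1, H2-D1, B2m, H2-Aa and H2-Eb1, against 0.956% of 32851 promoters of that length. The letters were chosen after the promoters of the 9 genes had been read, so that these counts are a description. The stretches are shown because the pair was found in some genes of each class, and the capitals mark the 2 motifs.
H2-K1: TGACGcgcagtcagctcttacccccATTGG
H2-D1: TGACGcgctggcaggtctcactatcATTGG
B2m: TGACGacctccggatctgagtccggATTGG
H2-Aa: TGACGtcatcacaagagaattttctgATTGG
H2-Eb1: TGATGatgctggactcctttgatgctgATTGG
They lie at chr17:34000359-34000388 (minus strand), chr17:35262993-35263022 (plus), chr2:122147609-122147638 (plus), chr17:34287867-34287897 (minus) and chr17:34305781-34305812 (plus), in the order shown, and end between 25 and 71 bases before the RefSeq start, counted for H2-K1 from the downstream one of its 2 starts. The stretch of H2-D1 overlaps an annotated exon of H2-D1, those of B2m and H2-Eb1 lie in introns of Patl2 and Gm20513, and those of H2-K1 and H2-Aa lie in no annotated gene. The pair was not found in Tap1 and Tapbp, although ATTGG alone was in all 7, as in 37.4% of promoters. An interferon-type motif, TTTCNNTTC, was in H2-K1 and H2-D1 and in 7.52% of promoters, and GAAA followed after 2 bases by GAAA was in B2m and in 3.44%.
H2-K1: ctccacagTTTCACTTCtgcaccta
H2-D1: ctcctcagTTTCACTTCtgcaccta
B2m: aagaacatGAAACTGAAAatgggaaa
These stretches are at chr17:34000421-34000445 (minus), chr17:35262936-35262960 (plus) and chr2:122147540-122147565 (plus), and a match of letters is not evidence that a factor binds there.

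B2m, H2-D1, H2-K1 and Tapbp had the highest levels and varied little, Tap1 was low and varied little, and the 4 class II genes were low and varied widely. Per kilobase of exon, the median level over the 22 libraries was 68.8 CPM for B2m, 12.5 for H2-D1, 8.82 for H2-K1, 6.36 for Tapbp, 1.51 for Cd74, 0.747 for Tap1, 0.650 for H2-Eb1, 0.358 for H2-Ab1 and 0.275 for H2-Aa. B2m did not overlap with H2-D1 in this order, and Tapbp did not overlap with Cd74, whereas every other pair of neighbours overlapped between libraries. The highest library was 1.36-fold above the lowest for Tapbp and 1.78-fold to 1.97-fold above it for H2-D1, B2m, H2-K1 and Tap1. For Cd74 it was 7.73-fold, for H2-Ab1 7.62-fold, for H2-Eb1 17-fold and for H2-Aa 18.9-fold above the lowest. The lowest value of H2-Aa rests on 5 counts in library 31B and the next on 3 counts in library 9, and the lowest of H2-Eb1 on 2 counts in library 9, under the floor of 3. H2-K1 and H2-D1 are close paralogs and only uniquely aligned reads were counted, without regard to strand, so that their levels are uncertain to the extent that reads were lost or split between copies.

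**Figure D1:**
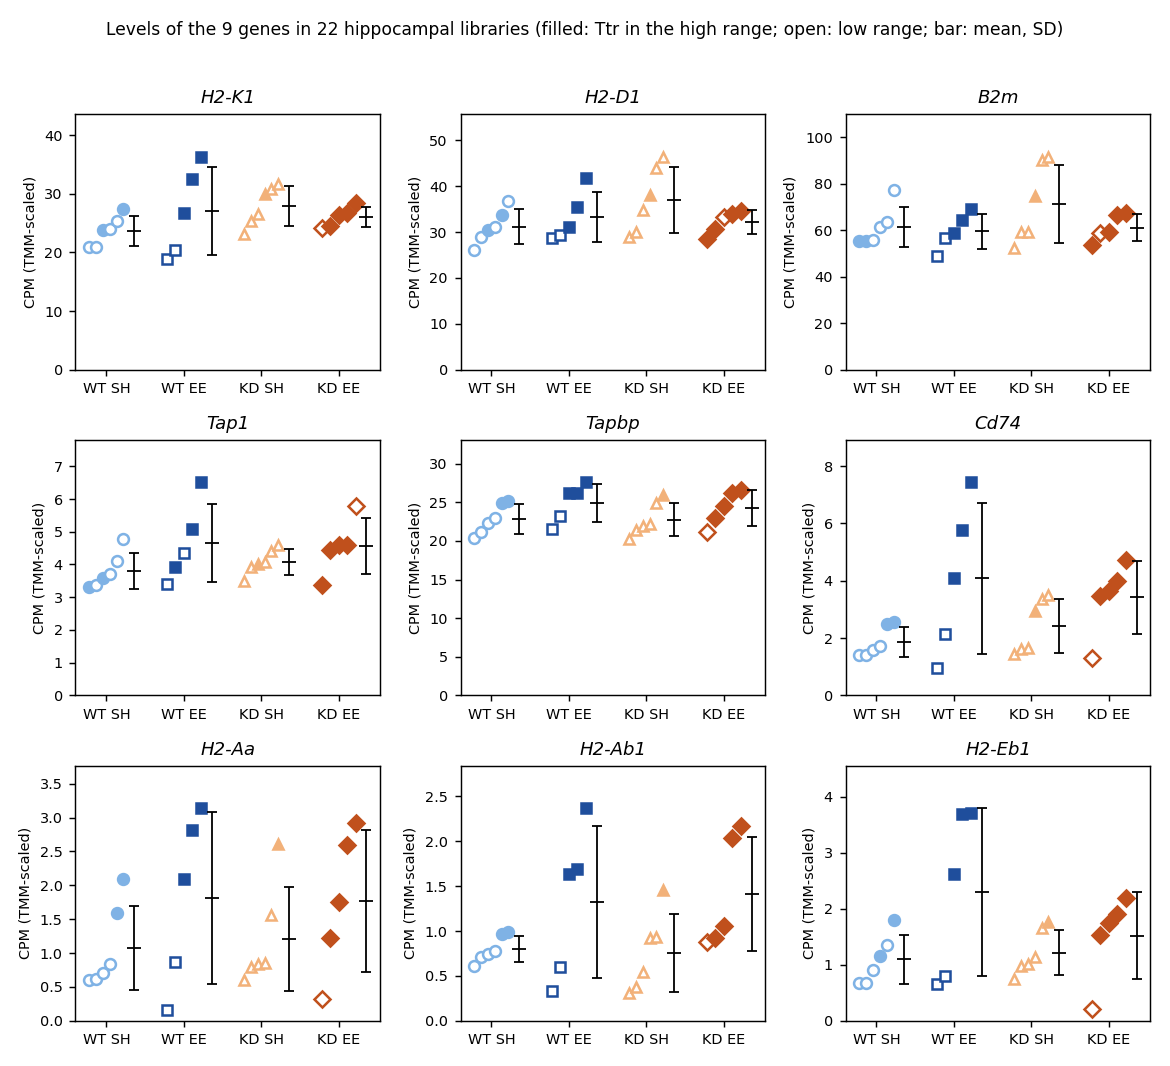
Level of each of the 9 genes (y axis, CPM scaled by TMM, from 0) in the 4 groups (x axis), 1 point per library, with the mean and SD of the group beside the points. Filled points are the 10 libraries with Ttr of 686 CPM or more, and in the class II genes of WT EE the 3 filled points lie above both open ones.

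Cd74, the invariant chain (chr18:60803848-60812652), had its widest spread in WT EE. In WT SH it was between 1.42 and 2.55 CPM (median 1.66, n = 6). In WT EE it was 0.962 CPM in library 31B, 2.13 in 35A, 4.10 in 33A, 5.77 in 16 and 7.43 in 17. The WT EE libraries thus held both the lowest and the 3 highest values of the 2 WT groups. In KD SH Cd74 was between 1.45 and 3.49 CPM (median 2.31, n = 6), and in KD EE it was 1.31 CPM in library 9, 3.48 in 32A, 3.63 in 8, 3.98 in 7 and 4.73 in 36A. Library 9 lay below every KD SH library, and 3 of the other KD EE libraries lay above all of them.

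H2-Aa, the α chain of I-A, was between 0.610 and 2.09 CPM in WT SH (median 0.775), with libraries 11 and 12 above the other 4. In WT EE it was 0.166 CPM in 31B, 0.866 in 35A, 2.09 in 33A, 2.81 in 17 and 3.14 in 16. In KD SH H2-Aa was between 0.598 and 2.61 CPM (median 0.843), with library 2 highest, and in KD EE it was 0.329 CPM in 9, 1.23 in 7, 1.75 in 32A, 2.60 in 36A and 2.92 in 8. EE and SH overlapped in both genotypes. Groups that do not overlap were rare among all 18482 genes tested, at 1.16% for WT EE against WT SH, 0.557% for KD EE against KD SH, 0.276% for WT SH against KD SH and 0.346% for WT EE against KD EE, and 0 of the 9 genes were among them.

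H2-Ab1, the β chain of I-A, was between 0.611 and 0.994 CPM in WT SH and between 0.311 and 1.45 CPM in KD SH. In WT EE H2-Ab1 was 0.332 CPM in 31B, 0.595 in 35A, 1.63 in 33A, 1.69 in 16 and 2.37 in 17, and in KD EE it was 0.876 CPM in 9, 0.919 in 7, 1.06 in 32A, 2.04 in 8 and 2.17 in 36A. H2-Eb1, the β chain of I-E, was between 0.676 and 1.80 CPM in WT SH and between 0.748 and 1.77 CPM in KD SH. In WT EE H2-Eb1 was 0.649 CPM in 35A, 0.796 in 31B, 2.62 in 33A, 3.70 in 17 and 3.71 in 16, and in KD EE it was 0.219 CPM in 9, 1.53 in 7, 1.75 in 32A, 1.91 in 8 and 2.2 in 36A. For both genes libraries 31B and 35A lay within or below WT SH, and the other 3 WT EE libraries lay above it.

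The class I genes varied less, and the groups overlapped in each of them in these 4 comparisons. H2-K1 was 23.7 ± 2.55 CPM in WT SH (SD, n = 6), 27.0 ± 7.51 in WT EE (n = 5), 27.9 ± 3.39 in KD SH (n = 6) and 26.0 ± 1.73 in KD EE (n = 5). H2-D1 was 31.2 ± 3.73, 33.3 ± 5.48, 37.1 ± 7.19 and 32.2 ± 2.58 CPM in the same order. B2m was 61.4 ± 8.54, 59.6 ± 7.58, 71.2 ± 16.9 and 61.1 ± 5.83 CPM. In KD SH libraries 1 and 5 were the highest of all 22 for both H2-D1 (44.0 and 46.4 CPM) and B2m (91.5 and 90.4 CPM). The 4 libraries highest in B2m, 1, 5, 14 and 2, also had the highest share of mitochondrial counts (6.46%, 5.58%, 7.17% and 5.61%, against at most 5.10% in the other 18), and the part of this in the levels of B2m was not tested. Tap1 was 3.81 ± 0.548, 4.66 ± 1.21, 4.08 ± 0.392 and 4.56 ± 0.864 CPM, and Tapbp was 22.8 ± 1.92, 25.0 ± 2.48, 22.8 ± 2.17 and 24.3 ± 2.30 CPM. For Tapbp 3 of 5 WT EE libraries lay above all WT SH libraries, and for H2-K1 2 lay above and 2 below them.

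In the 22 libraries the mean levels of the 4 class II genes were higher in EE than in SH in both genotypes, but the groups overlapped and none of the 9 genes passed the test. Calls required an adjusted p of 0.05 or less (quasi-likelihood test of edgeR, Benjamini-Hochberg adjustment over 18482 genes) and a log2 fold change of at least 0.38 in either direction. In WT mice the log2 fold change with enrichment was 1.12 ± 0.36 (SE) for Cd74 (adjusted p = 0.402) and 1.04 ± 0.40 for H2-Eb1 (adjusted p = 0.448), with 0.76 ± 0.51 for H2-Aa (0.47 without library 16) and 0.71 ± 0.41 for H2-Ab1 (0.41 without library 17). It was between -0.05 and 0.27 for the 5 class I genes, with Tap1 highest (0.12 without library 17) and H2-K1 at 0.18 (0.05 without library 17). In KD mice it was 1.0 ± 0.41 for H2-Ab1 (adjusted p = 0.480 by edgeR), 0.67 ± 0.50 for H2-Aa (0.44 without library 8 and 1.11 without library 2), 0.59 ± 0.37 for Cd74 and 0.44 ± 0.41 for H2-Eb1. For the class I genes it was between -0.20 for B2m (-0.12 without library 1) and 0.17 for Tap1 (0.09 without library 9). The share of all genes called was 0% in both comparisons, while 1598 genes in WT and 1779 in KD had an unadjusted p under 0.05, as had 2 and 1 of the 9 genes, and the Wald test of DESeq2 called 18 and 4 genes (0.0974% and 0.0216%) and 0 of the 9. In bulk tissue fewer cells of a type and less RNA per cell cannot be told apart.

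Between genotypes none of the 9 genes was called. In SH the log2 fold change of WT over KD was -0.24 ± 0.11 for H2-D1 (edgeR, adjusted p = 0.811), -0.23 ± 0.12 for H2-K1 and -0.20 ± 0.12 for B2m. Without KD SH libraries 1 and 5, left out after the values had been seen, these became -0.07, -0.14 and 0.01. In EE the log2 fold change of WT over KD was between -0.20 and 0.46 over the 9 genes, with the highest for H2-Eb1 (0.46 ± 0.42, and between 0.21 without library 16 and 0.70 without library 35A). The interaction, the difference of the enrichment effect of WT from that of KD, was 0.60 ± 0.58 for H2-Eb1, 0.53 ± 0.52 for Cd74 and -0.29 ± 0.58 for H2-Ab1. With 1 library left out it was as low as 0.36 for H2-Eb1 (without 16) and 0.21 for Cd74 (without 17), and it ran from -0.64 (without 2) to -0.06 (without 31B) for H2-Ab1. In these 3 comparisons 0% of all genes and 0 of the 9 were called. By edgeR 1065, 482 and 377 genes had an unadjusted p under 0.05, as had 1, 0 and 0 of the 9. DESeq2 called 2 (0.0108%), 0 and 0 genes and 0 of the 9.

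The study itself compared 17 libraries, without 2, 9, 12, 31B and 35A, which it left out for poor correlation within their group. A choice by agreement narrows the spread within groups. The SE and p values of the 17 libraries can therefore be too small. In these 17 libraries 5 of the 9 genes were called higher in WT EE than in WT SH, with 3.55% of 18701 genes called in either direction and 3.48% as higher. They were H2-Eb1 at 1.78 ± 0.24 (adjusted p = 4.3e-05 by edgeR), Cd74 at 1.73 ± 0.27 (adjusted p = 0.000176), H2-Aa at 1.63 ± 0.31 (adjusted p = 0.00174), H2-Ab1 at 1.30 ± 0.32 (adjusted p = 0.0177) and H2-K1 at 0.42 ± 0.11 (adjusted p = 0.0358). In KD mice 2 of the 9 were called higher, with 1.74% of all genes called and 1.64% as higher, H2-Ab1 at 1.47 ± 0.31 (adjusted p = 0.00962) and H2-Aa at 1.32 ± 0.30 (adjusted p = 0.0166), while Cd74 was at 0.84 ± 0.25 (adjusted p = 0.112) and H2-Eb1 at 0.80 ± 0.24 (adjusted p = 0.113). The difference between the genotypes was not called for any of the 9 (interaction, adjusted p = 0.875 for Cd74, H2-Eb1 and H2-K1, with 0% of genes called). Between genotypes 0 of the 9 were called in SH, with 0% of genes called, and 0 in EE, with 0.00535%. Without the lettered libraries, which leaves WT EE with libraries 16 and 17, H2-K1 (0.54 ± 0.11, adjusted p = 0.0183), Cd74 (1.83 ± 0.32, adjusted p = 0.00854) and H2-Eb1 (1.76 ± 0.37, adjusted p = 0.0176) of the 9 were called higher in WT EE by edgeR, with 1.64% of all genes called. In KD EE 0 of the 9 and 0% of all genes were called without the lettered libraries. Ttr was at 4738 and 3692 CPM in WT EE libraries 16 and 17. It was at 901, 1969 and 164 CPM in KD EE libraries 7, 8 and 9, which remain there. The 2 genotypes thus differed in Ttr in this set, and its part in the calls was not tested.

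**Figure D2:**
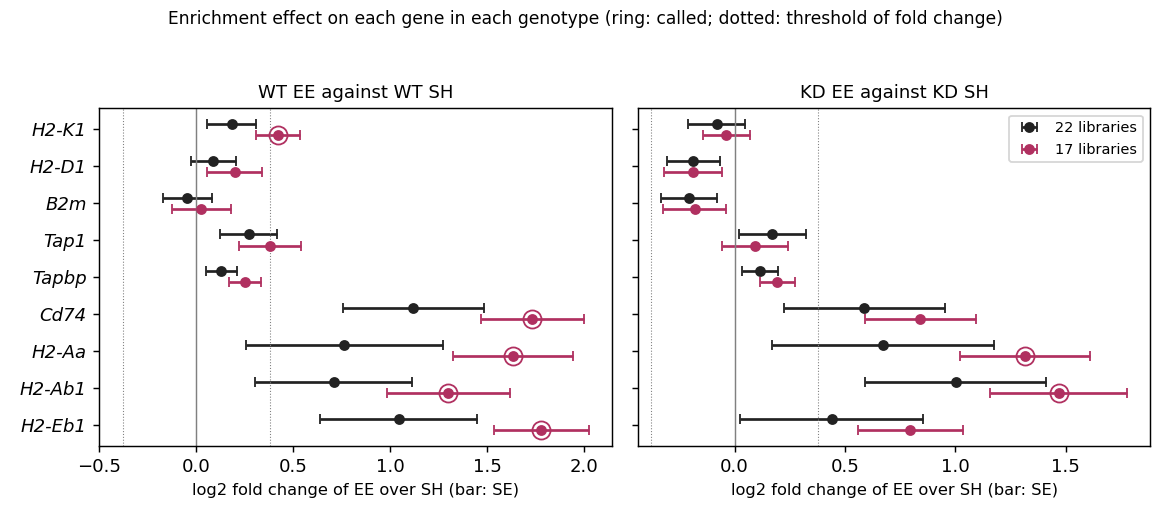
Log2 fold change of EE over SH (x axis, bars are SE) for each gene (y axis) in WT (left) and KD (right), in all 22 libraries and in the 17 that the study compared. Rings mark genes called and dotted lines the threshold of 0.38, and 5 genes of WT and 2 of KD are ringed, all in the 17 libraries.

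Ttr varied far more between libraries than any of the 9 genes. Over the 22 libraries it ran from 16.8 to 5105 CPM and fell into 2 separate ranges, 12 libraries between 16.8 and 164 CPM and 10 between 686 and 5105 CPM, with a gap of 4.19-fold between them. The upper range held, of WT libraries, 2 of 6 in SH and 3 of 5 in EE, and of KD libraries, 1 of 6 in SH and 4 of 5 in EE. In the 17 libraries of the study it held 1 of 5 in SH and 3 of 3 in EE of WT, and 0 of 5 in SH and 4 of 4 in EE of KD, so that housing and the range of Ttr can hardly be told apart there. For H2-Aa and H2-Ab1, 9 of the 10 libraries in the upper range lay above all 12 of the lower range. The number was 8 for H2-Eb1 and Tapbp, 6 for Cd74, 2 for H2-K1, 1 for Tap1 and 0 for H2-D1 and B2m, and no test was made of libraries grouped in this way.

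**Figure D3:**
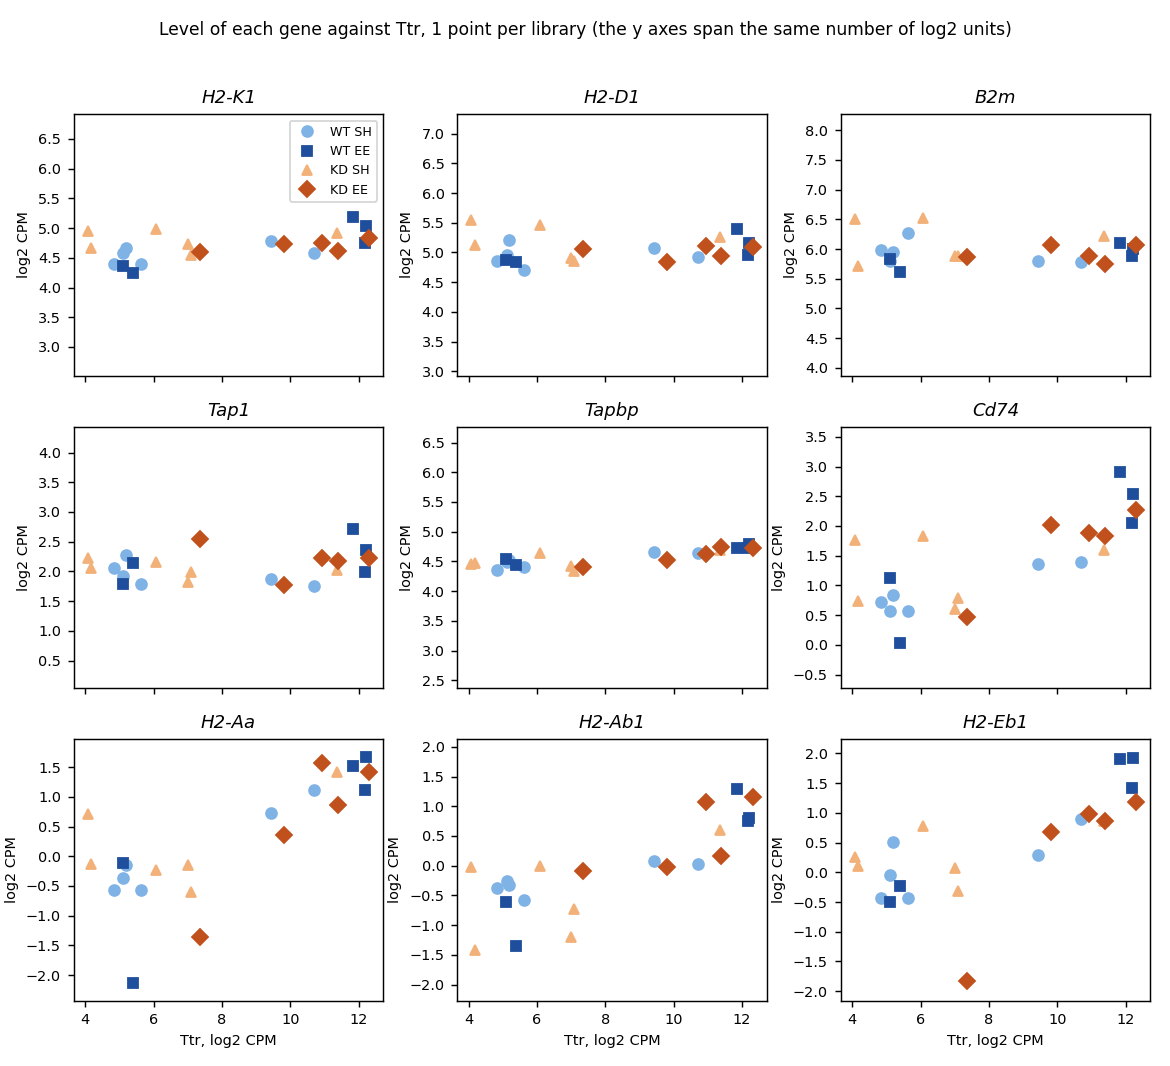
Level of each gene (y axis, log2 CPM) against Ttr (x axis, log2 CPM), 1 point per library with the symbol of its group, all panels spanning the same number of log2 units. For H2-Aa and H2-Ab1 9 of the 10 libraries on the right lie above all 12 on the left, whereas H2-D1 and B2m are highest in 2 KD SH libraries on the left.

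Within the 4 groups, 6 of the 9 genes rose with Ttr. The slope, the log2 change of a gene per doubling of Ttr in the edgeR fit with a mean for each group, was 0.276 ± 0.044 (SE) for H2-Aa (adjusted p = 0.000118), 0.221 ± 0.040 for H2-Eb1 (adjusted p = 0.000548), 0.208 ± 0.041 for H2-Ab1 (adjusted p = 0.0015) and 0.170 ± 0.040 for Cd74 (adjusted p = 0.00824). It was smaller for H2-K1, at 0.052 ± 0.015 (adjusted p = 0.0353), and for Tapbp, at 0.037 ± 0.0086 (adjusted p = 0.00663). H2-D1, B2m and Tap1 were at 0.013 ± 0.016, 0.0065 ± 0.018 and 0.0039 ± 0.021 and did not pass. The call of H2-K1 was lost when any of libraries 10, 11, 14, 16, 17, 31B and 35A was left out, with adjusted p between 0.0513 and 0.170, and the other 5 calls were kept without any single library. Of 18481 genes, 6.6% were called in either direction and 5.19% as rising. In the 17 libraries, in which Ttr stayed within 1 range in 3 of the 4 groups, 0 of the 9 genes and 0.182% of all genes (0.176% rising) were called, and without the lettered libraries H2-Aa alone was called (0.25 ± 0.053, adjusted p = 0.0133, with 1.27% of all genes called). With at least 10 counts required in every library, 6 of the 9 entered the fit and H2-K1, Tapbp and Cd74 were called, with 7.41% of genes called. With Ttr in the fit of all 22 libraries, the log2 fold change with enrichment in WT was 0.54 for Cd74, 0.25 for H2-Eb1, -0.01 for H2-Ab1 and -0.09 for H2-Aa, and in KD it was -0.09, -0.43, 0.28 and -0.32, with 0 of the 9 and 0% of all genes called.

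**Figure D4:**
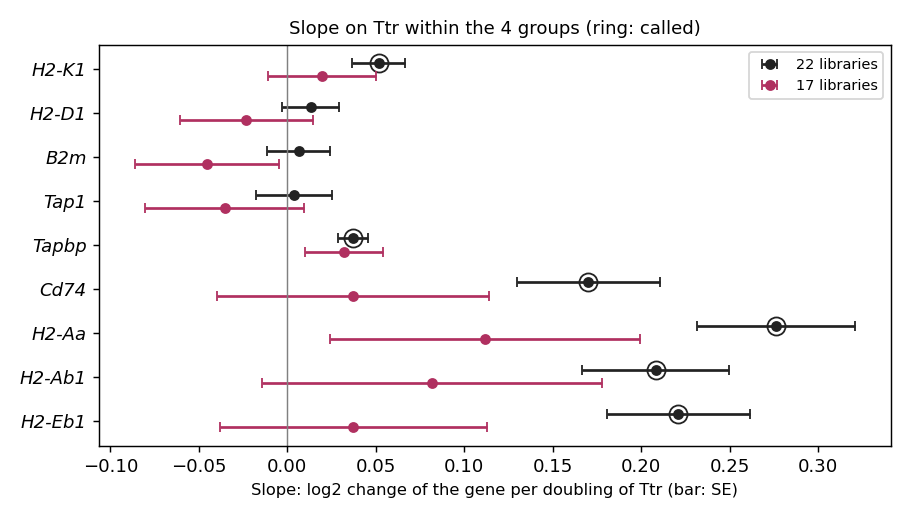
Slope of each gene on Ttr within the 4 groups (x axis, log2 change per doubling of Ttr, bars are SE), in 22 and in 17 libraries. The 6 ringed genes were called in the 22 libraries, and no gene is ringed in the 17.

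Since Ttr fell into separate ranges, its relation to each gene was also computed within them, as 18 relations with two-sided permutation tests adjusted over the 18. In the upper range (n = 10) Pearson's r was above 0 for 9 of 9 genes. It was 0.81 for H2-Eb1 (Spearman's rho 0.81, permutation p = 0.00459 and 0.0074, adjusted p = 0.074 and 0.0666), 0.77 for Tapbp (rho 0.81, permutation p = 0.00822 and 0.00727, adjusted p = 0.074 and 0.0666) and 0.73 for H2-Ab1 (rho 0.73, permutation p = 0.0185 and 0.0209, adjusted p = 0.0872 and 0.0941). H2-Aa was at 0.72 (rho 0.59, permutation p = 0.0194 and 0.0800, adjusted p = 0.0872 and 0.206). Without libraries 11 and 7, the farthest from the median of Ttr, r was 0.67 for H2-Eb1, 0.77 for Tapbp, 0.54 for H2-Ab1 and 0.25 for H2-Aa, so that the relation of H2-Aa rests on those 2. These relations take no account of the 4 groups, which are too small within a range for values of their own. Over deviations from the group means, r in the upper range was 0.32 for H2-Eb1 and 0.64 for H2-Ab1. It was 0.81 for Tapbp and 0.76 for H2-Aa, and these group means cover both ranges. In the lower range (n = 12) r was between -0.43 for H2-Eb1 and 0.13 for Tap1, and above 0 for 2 of 9. There H2-Aa had an r of -0.40 and a rho of -0.62 (permutation p = 0.1995 and 0.0367, adjusted p = 0.448 and 0.132). Its r was -0.66 without library 31B and -0.22 without library 5. The r of H2-Eb1 there rests on library 9, with 2 counts of it, and was -0.04 without that library, while that of Cd74 (-0.27) was -0.03 without library 5. None of the 18 relations passed the adjustment.

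Other transcripts of the choroid plexus and its surroundings moved with Ttr, and their part in the class II result was not tested. Of the genes of each list that entered the fit, 9 of 9 choroid plexus markers other than Ttr, 6 of 8 meningeal markers and 4 of 5 blood markers were called as rising with Ttr. Of 8 endothelial markers 1 was called as rising. Over all genes 5.19% were called as rising and 6.6% in either direction. Of 9 border macrophage markers 0 were called, but 8 had a slope above 0 and 5 an unadjusted p under 0.05. Their median slope was 0.052, against -0.00097 over all genes. The median of the 9 genes of antigen presentation was also 0.052, but the 4 class II genes had slopes between 0.170 and 0.276. Of 8 hippocampal neuron markers 0 were called, but all 8 had a slope below 0 and 3 an unadjusted p under 0.05, with a median slope of -0.016. None was called as changing with Ttr among 12 microglial, 5 dendritic cell, 3 B cell and 2 T and NK cell markers. The summed meningeal markers were between 125 and 241 CPM in WT SH, 110 and 399 in WT EE, 97.1 and 266 in KD SH, and 120 and 352 in KD EE. Microglial markers summed to between 391 and 456 CPM in WT SH, 393 and 410 in WT EE, 401 and 445 in KD SH, and 372 and 408 in KD EE. T and NK cell markers summed to at most 2.59 CPM in any library.

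Among 21 other class I pathway genes tested, 0 were called in any of the 5 comparisons of the 22 libraries, in which 0% of all genes were called, and 2 rose with Ttr, beside 5.19% of all genes. These were Mr1 (slope 0.096 ± 0.022, adjusted p = 0.00643 by edgeR), which presents vitamin metabolites, and Fcgrt (0.061 ± 0.014, adjusted p = 0.00459), the neonatal Fc receptor. Among 8 other class II pathway genes, 0 were called in the comparisons and 1 rose with Ttr, Ctsl (0.053 ± 0.0087, adjusted p = 0.00015), a protease that processes the invariant chain. None of the 10 genes of MHC transcription was called in any of these fits. Ciita, the master activator of class II transcription, was at a log2 fold change with enrichment of 0.50 ± 0.24 in WT (adjusted p = 0.553) and 0.61 ± 0.25 in KD (adjusted p = 0.478). In the 17 libraries 3 of the 21 class I pathway genes, H2-T23, Mr1 and Fcgrt, were called higher in WT EE, beside 3.48% of all genes, and 0 in KD EE, beside 1.64%. Of the 9 other class II pathway genes tested there, 0 were called in WT EE or KD EE, beside 3.55% and 1.74% of all genes. In WT EE 4 of these 9 had a log2 fold change above 0, and the median was -0.13. By edgeR 3 of the 4 had an unadjusted p under 0.05.

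Of 20 interferon response genes, 0 were called in the 5 comparisons of the 22 libraries, as were 0% of all genes, and 2 rose with Ttr, beside 5.19% of all genes, Ifi27 (slope 0.0997 ± 0.016, adjusted p = 0.000127 by edgeR) and Bst2 (0.119 ± 0.032, adjusted p = 0.0237), which tethers budding virus. In the 17 libraries the same 2 were called higher in WT EE (0.67 ± 0.14, adjusted p = 0.00334, and 1.18 ± 0.26, adjusted p = 0.00752, with 3.48% of all genes called as higher), and 0 of the 20 in KD EE. Their summed level ran from 112.7 to 188.5 CPM, with library 36A at the top and library 5 next to it at 158.5 CPM. Over the 22 libraries the log2 of this sum was related to each of the 9 genes, a relation chosen after the values had been seen, with two-sided permutation tests adjusted over the 9. This adjustment does not cover the choice of the interferon list among the other lists. The p values are therefore too small by an unknown amount and serve as a description. H2-D1 had a Pearson's r of 0.65 (permutation p = 0.00122, adjusted p = 0.00275) and a rho of 0.74 (permutation p = 0.0001, adjusted p = 0.00045), and r was 0.82 without libraries 36A and 15. H2-K1 had an r of 0.68 (permutation p = 0.00053, adjusted p = 0.00159) and a rho of 0.75 (permutation p = 0.00015, adjusted p = 0.00045), and r was 0.79 without them. Tap1 had an r of 0.61 (permutation p = 0.00248, adjusted p = 0.00446) and a rho of 0.66 (permutation p = 0.00121, adjusted p = 0.00194), and Cd74 an r of 0.72 (permutation p = 6e-05, adjusted p = 0.00054) and a rho of 0.75 (permutation p = 0.0001, adjusted p = 0.00045), with r at 0.69 and 0.72 without those libraries. The other 5 genes had an r between 0.45 for B2m and 0.68 for H2-Ab1. Without the lettered libraries (n = 17) r was 0.82 for H2-D1, 0.78 for H2-K1, 0.76 for Tap1, 0.70 for Cd74 and 0.58 for H2-Ab1, and between 0.48 and 0.51 for B2m, Tapbp, H2-Aa and H2-Eb1, whose r no longer passed (permutation test, adjusted p between 0.0525 and 0.0531). By rho B2m, H2-Aa and H2-Eb1 passed there (permutation test, adjusted p = 0.0450, 0.0365 and 0.0189) and Tapbp did not (adjusted p = 0.0650). The lettered libraries are 5, too few for a value of their own. Summed markers of other tissue moved with the same genes, given here as r over the 22 libraries with no test. H2-K1 had an r of 0.77 with blood markers, Cd74 of 0.79 with meningeal and 0.76 with choroid plexus markers, and H2-Aa of 0.79 with choroid plexus markers, each above its r with the interferon list. H2-D1 had an r of 0.45 with blood, 0.09 with choroid plexus and 0.05 with meningeal markers. With the summed hippocampal neuron markers r was below 0 for all 9 genes, at -0.74 for H2-Ab1, -0.72 for Cd74 and Tapbp, -0.64 for H2-Aa, -0.57 for H2-Eb1, -0.53 for H2-K1, -0.44 for H2-D1 and Tap1 and -0.17 for B2m. The part of these cells and tissues in the relation to the interferon list was not tested.

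Among themselves the 9 genes formed no single block. As a description over deviations from the group means in 22 libraries, which share depth and scaling, r was between 0.73 and 0.89 for the pairs among Cd74, H2-Aa, H2-Ab1 and H2-Eb1. It was 0.78 between H2-K1 and H2-D1. H2-K1 had an r between 0.75 and 0.87 with the 4 class II genes and of 0.72 with Tapbp. Tapbp had an r between 0.74 and 0.83 with the class II genes, and of 0.52 with H2-D1, 0.23 with B2m and 0.10 with Tap1. Tap1 had its highest r with H2-D1 (0.71) and its lowest with H2-Aa (0.06).

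**Figure D5:**
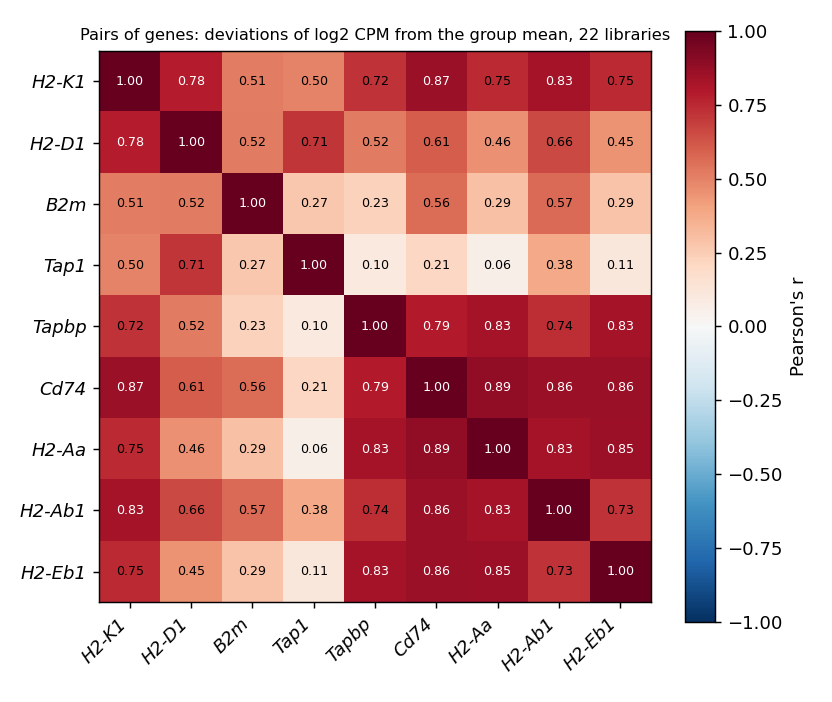
Pearson's r between each pair of the 9 genes (rows and columns), over deviations of log2 CPM from the group mean in 22 libraries, coloured from -1 to 1. The pairs among the class II genes, Tapbp and H2-K1 run from 0.72 to 0.89, and Tap1 has values from 0.06 to 0.71.

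The genes whose level over the 22 libraries was most like that of Cd74, among the genes tested, were Cd59a (r = 0.88), Fap (0.87) and Lamp2 (0.86). For H2-Aa they were Wfikkn2 (0.89), Slc13a4 (0.89) and Loxl2 (0.88). For H2-K1 they were Hbb-bt (0.83), a β globin, Etfa (0.81) and Ptges (0.80), and for B2m they were Hprt (0.91), Selenof (0.90) and Ppt1 (0.89). The genes most like H2-Aa thus differ from those most like B2m, and these are descriptions over the same libraries with no test.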

How the data were processed

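RNA of mouse hippocampus was sequenced from polyadenylated transcripts as paired-end reads. Raw counts per gene and library were deposited by the authors, who had used Skewer for trimming, STAR 2.5 for alignment to GRCm38 and HTSeq for counting of unique alignments on either strand. Reads outside single genes, between 14.0% and 18.6% of those counted in a library, were left out of library sizes. In none of 60 pairs of libraries of a group were the counts identical. The 9 genes and all gene lists were chosen with earlier results of these data known.

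Genes were filtered with filterByExpr, scaled by TMM and tested in edgeR 4.0.16 (R 4.3.3) with 4 group means and Benjamini-Hochberg adjustment over all genes tested, at an adjusted p of 0.05 and an absolute log2 fold change of 0.38, the thresholds of the study. All 9 genes passed the filter. The slope on Ttr added log2 CPM of Ttr (prior count 2) to that fit, with no threshold of fold change. Permutation tests drew 100000 resamples. The fits were tested on simulated data. Alternatives were DESeq2 1.42.0, its size factors, other filters, other sets of libraries and each library left out. Intervals and floors cover counting error only. Positions are from GENCODE, and promoters from RefSeq.

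Named genes were the 9, Ttr, Rps6ka5, list genes called in a comparison or with the lowest p values of their pathway list, and the 3 genes most correlated with each of Cd74, H2-Aa, H2-K1 and B2m. H2-Ea-ps was named outside this rule, after its counts were seen, and Tap2, Patl2 and Gm20513 are named without values, as background or as annotation.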

Additional observations from a re-analysis of the deposited data

Results flagged for a closer look

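Among 36 sets of values, each of the 9 genes in each group, tested for a single distant value (Dixon's test), in which chance gives about 1 in 20, there was 1 such value. The sets share libraries and are not independent. B2m was at 77.35 CPM in library 14 of WT SH, above the other 5 libraries of that group, and library 14 also had the highest share of mitochondrial counts of the 22 libraries, 7.17%.

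Library 33B of WT EE, left out of the comparisons, lay above the highest WT SH library for 3 of the 9 genes when all 24 libraries were scaled together. Tapbp was at 25.62 CPM in it (highest WT SH library 25.28), Cd74 at 2.541 CPM (2.535) and H2-Ab1 at 1.089 CPM (0.999). These values of Cd74 and H2-Ab1 rest on 35 and 15 counts. In the same scaling B2m was at 44.2 CPM in library 33B and H2-Aa at 0.436 CPM, on 6 counts. The lowest WT SH libraries were at 55.2 and 0.610 CPM, scaled over the 22 libraries. Relative to its total of counts on genes alone, without TMM, library 33B held 18.9 CPM of Tapbp, 1.87 of Cd74 and 0.804 of H2-Ab1, each below the highest WT SH library, so that these values depend on the scaling. Library 34B held 0 counts of all 9 genes, and at its depth the floor of 3 counts stands for 182 CPM and the upper bound of the exact binomial interval (Clopper-Pearson) is 224 CPM.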

How the results depend on the processing

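No paired analysis was possible because the groups share no replicate number. The number of the 9 genes called higher in WT EE was 0 in the 22 libraries and 5 in the 17. It was 3 without the lettered libraries. Of all genes 0%, 3.55% and 1.64% were called there, in that order. In KD EE the number was 0, 2 and 0 in the same order, with 0%, 1.74% and 0% of all genes called. The number rising with Ttr was 6, and it was 0 in the 17 libraries, 1 without the lettered libraries and 3 with at least 10 counts in every library, where 6 of the 9 were tested. Without each library in turn it was 5 to 6, and the number called in each of the 5 comparisons was 0 to 0. The number with r above 0 in the low range of Ttr was 2, and it was 0 in the 17 libraries, 1 without the lettered libraries, 8 over deviations from the group means and 0 to 4 without each library in turn. The group means behind these deviations cover both ranges of Ttr, so that values over them hold part of the difference between the ranges and are not relations within a range. The cause of the other differences was not tested. Depth limits H2-Aa and H2-Eb1, with 3 and 2 counts in library 9.

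Directions turned as follows, each for a value that was not called in the 22 libraries. For WT EE over WT SH, B2m was at 0.027 in the 17 libraries and 0.12 without the lettered libraries, and with Ttr in the fit H2-Aa was at -0.091 and H2-Ab1 at -0.014. For KD EE over KD SH, without libraries 1 and 5 (chosen after seeing the data) H2-K1 was at 0.0083 and B2m at 0.010, and with Ttr in the fit Tapbp was at -0.03, Cd74 at -0.094, H2-Aa at -0.32 and H2-Eb1 at -0.43. For WT SH over KD SH, B2m was at 0.0069 without libraries 1 and 5. For WT EE over KD EE, H2-D1 was at -0.0063 and Tap1 at -0.015 in all 24 libraries, B2m at 0.047 and H2-Ab1 at 0.23 in the 17, and B2m at 0.10 and H2-Ab1 at 0.53 without the lettered libraries. H2-Aa was at 0.053 with Ttr in the fit, 0.28 in the 17, 0.78 without the lettered libraries and 0.0047 by DESeq2. For the interaction, B2m was at -0.054 and Tapbp at -0.0073 without libraries 1 and 5, H2-Aa at -0.054 in all 24 and H2-Ab1 at 0.43 without the lettered libraries. For the slope on Ttr, H2-D1, B2m and Tap1 were at -0.023, -0.045 and -0.035 in the 17 libraries and -0.0092, -0.018 and -0.039 without the lettered libraries, and B2m was at -0.0071 with no group means. For r in the low range of Ttr, H2-K1 was at 0.0037 in all 24 libraries and 0.016 without TMM, Tap1 at -0.42 and H2-Ab1 at -0.19 in the 17, and H2-Ab1 at -0.017 without the lettered libraries. Over deviations from the group means r was 0.41 for H2-K1, 0.093 for B2m, 0.31 for Tapbp, 0.41 for Cd74, 0.38 for H2-Aa and 0.54 for H2-Eb1 in the low range, and -0.017 for B2m in the high range.

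Without each library in turn, WT EE over WT SH ranged from -0.0082 to 0.14 for H2-D1 and from -0.11 to 0.026 for B2m. WT SH over KD SH ranged from -0.026 to 0.047 for Tapbp, -0.48 to 0.24 for H2-Aa, -0.064 to 0.44 for H2-Ab1 and -0.33 to 0.0061 for H2-Eb1. WT EE over KD EE ranged from -0.092 to 0.14 for H2-K1, -0.057 to 0.085 for H2-D1, -0.10 to 0.015 for B2m, -0.13 to 0.11 for Tap1, -0.019 to 0.069 for Tapbp, -0.14 to 0.43 for Cd74, -0.38 to 0.19 for H2-Aa and -0.49 to 0.037 for H2-Ab1. The interaction ranged from -0.045 to 0.19 for Tap1, -0.027 to 0.061 for Tapbp and -0.34 to 0.38 for H2-Aa. The slope ranged from -0.0045 to 0.017 for B2m and -0.016 to 0.012 for Tap1. In the low range of Ttr, r ranged from -0.10 to 0.26 for H2-K1, -0.25 to 0.19 for B2m, -0.35 to 0.31 for Tap1 and -0.25 to 0.22 for H2-Ab1. Of the values without each library, 1297 of 1386 kept their direction and their side of the threshold, as did 596 of 675 under the other settings. The threshold was the call for the fits and an adjusted p of 0.05 for the relations to the interferon list. For r within a range of Ttr it was an unadjusted permutation p of 0.05, unlike the adjusted p used above.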

Other observations

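Ea, the α chain that pairs with the product of H2-Eb1, is not functional in the H2-b haplotype of C57 mice, and H2-Ea-ps had at most 2 counts in any of the 22 libraries. In the 17 libraries that the study compared, markers of other cell types were called by edgeR beside the class II genes. In WT EE against WT SH 10 of 10 choroid plexus, 7 of 8 meningeal and 4 of 5 blood markers were called, all higher. So were 2 of 9 border macrophage and 1 of 6 dendritic cell markers. Neurod6, 1 of 8 hippocampal neuron markers, was called lower, and 0 of 12 microglial markers were called. Of all genes 3.55% were called in this comparison, 3.48% as higher. In KD EE against KD SH 10 of 10 choroid plexus and 3 of 8 meningeal markers were called, all higher. Of 12 microglial markers 1 was called lower, and 0 of 5 blood and 0 of 9 border macrophage markers were called. Of all genes 1.74% were called there, 1.64% as higher. The part of these cell types in the class II result was not tested.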
